A study of Drosophila melanogaster with 3 samples.

Results

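The small nuclear RNA genes of Drosophila melanogaster, taken here as every dm6 gene whose symbol begins with snRNA:, number 32 of the 17807 genes placed on the main chromosomes in the RefSeq gene table. They were set against the anti-HA CUT&Tag peaks of wing discs of the third instar larvae, of the genotype nub>GFP;UAS-BunA-HA, in which the nubbin driver, active in the wing pouch, expresses GFP and an HA-tagged BunA, an isoform of the TSC22 family gene bunched. All 3 libraries belong to this 1 group, BunA-HA wing disc, and no library with another antibody or without the tagged protein was analysed here, so signal of the antibody and open chromatin cannot be told apart. CUT&Tag places a transposase at the antibody, so that DNA beside the bound protein is cut out and sequenced. Nothing in the labels ties a library to its own cross or animals, and the spread over 3 libraries may therefore be technical.

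Small nuclear RNAs are short RNAs without a poly(A) tail that work as parts of ribonucleoprotein particles in the nucleus. U1 pairs with the donor splice site and U2 with the branch point, and U4, U5 and U6 join them as a tri-snRNP to form the major spliceosome. U11, U12, U4atac and U6atac do the same work in the minor spliceosome. U7 directs the processing of histone mRNA ends, and 7SK holds the elongation kinase P-TEFb in an inactive particle. Most of these genes are read by RNA polymerase II from promoters with a proximal sequence element bound by the complex SNAPc, while U6, U6atac and 7SK are read by RNA polymerase III.

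Of the 32 genes, 6 had a peak in the gene or within 1000 bp of it in each of the 3 libraries (18.8%). By the same rule 23.5% of all genes and 19% of the 1922 genes no longer than the longest snRNA gene, 444 bp, were called, so the share of snRNA genes was near the background. The 6 genes were snRNA:7SKa, snRNA:U1:95Ca, snRNA:U5:63BC, snRNA:U4:39B, snRNA:U2:34ABb and snRNA:U12. They came from 6 of the 12 classes, with 1 gene from each. Another 4 genes had a peak in 2 libraries, 5 genes had one in a single library and 17 genes had none. At least 2 libraries had a peak at 10 snRNA genes (31.2%, against 28.4% of all genes), and at least 1 library at 15 (46.9%, against 35.2%). Replicate 1 had a peak at 13 of the 32 snRNA genes (40.6%), replicate 2 at 7 (21.9%) and replicate 3 at 11 (34.4%), 32.3% ± 9.55 per library (SD, n = 3), against 29.0% ± 0.840 of all genes. The low count of replicate 2 was not shared by the genes as a whole, of which it had a peak at 29.5%, as had replicate 3, against 28.1% for replicate 1. It lay mostly in the flanks, where 1 peak can count for several snRNA genes. A peak overlapped the gene itself at 8, 7 and 9 snRNA genes in replicates 1, 2 and 3. The share of all genes with such a peak was not counted per library. In at least 1 library a peak overlapped 10 of the 32 snRNA genes (31.2%). By that rule the share was 22.3% of all genes and 12.7% of genes of at most 444 bp. The distinct peaks near snRNA genes numbered 11, 7 and 10.

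**Figure D1:**
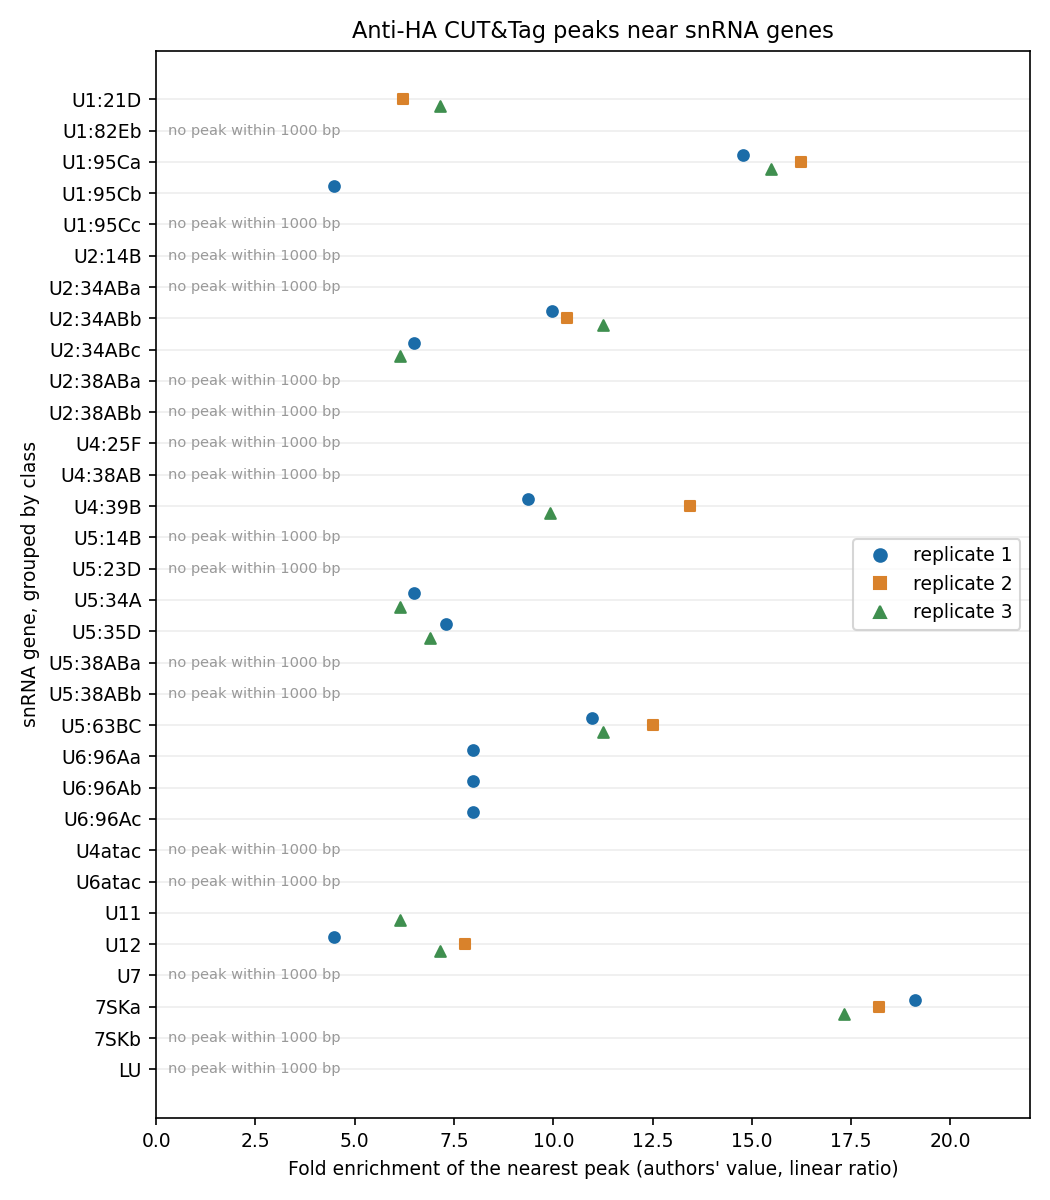
Fold enrichment of the peak with the nearest summit within 1000 bp of each of the 32 snRNA genes, 1 point per library, with genes grouped by class on the vertical axis. The 6 genes with a point for all 3 replicates span 4.49 to 19.1, and 17 genes have no point.

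The rule does not ask where in the window a peak lies, and the 6 genes shared a position on the gene itself. All 18 of their peaks overlapped the snRNA gene. Of the 18 summits, 6 lay inside the gene and the other 12 lay 5 to 113 bp outside it. Counting a gene only where a peak overlaps it in all 3 libraries, the same 6 of 32 snRNA genes remained (18.8%), against 14.2% of all genes and 7.39% of genes of at most 444 bp. The mean summit distance of the 6 genes had a median of 24.5 bp, against 175 bp for the 365 genes of at most 444 bp with peaks in all 3 libraries. The 6 mean distances ran from 0 to 96.3 bp. They follow largely from the overlap of all 18 peaks with the gene and are no separate result. The count over the gene itself was chosen after the values were seen, and the comparison of distances with short genes was not planned. The peaks were 175 to 447 bp wide. All 18 were wider than the median peak of their own library, which was 157, 163 and 160 bp. That median covers every peak of a library, whereas these 18 peaks come from genes called in all 3 libraries. The call itself depends on peak strength. Widths at other genes with peaks in all 3 libraries were not compared, so the width is not shown to be particular to snRNA genes.

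**Figure D2:**
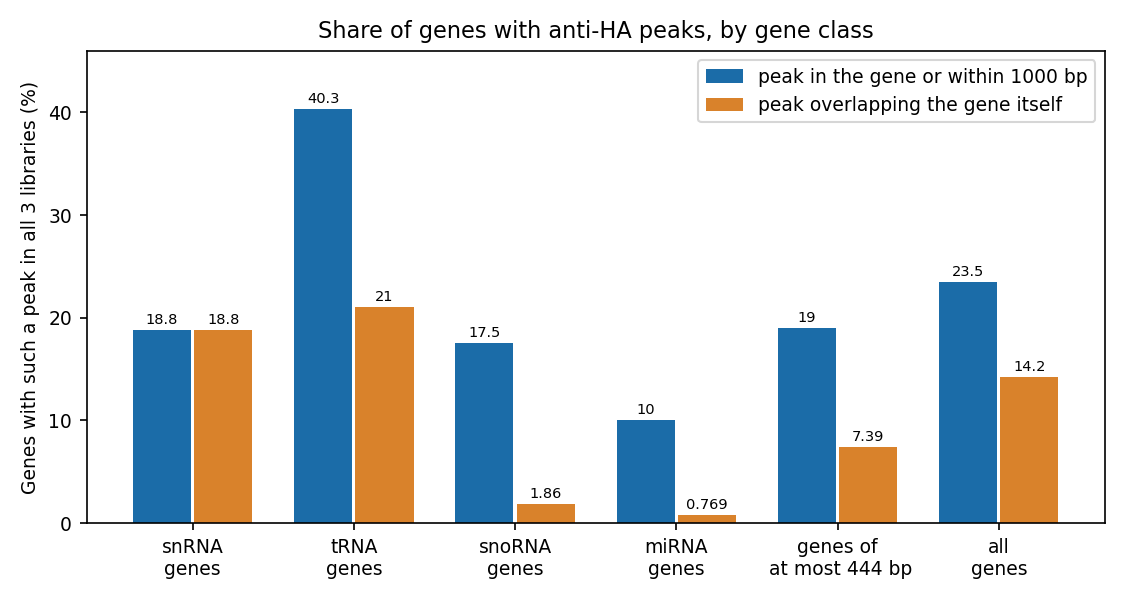
Percent of genes with a peak in all 3 libraries, in the gene or within 1000 bp of it (blue) and overlapping the gene itself (orange), for 32 snRNA genes, 290 tRNA genes, 269 snoRNA genes, 260 miRNA genes, 1922 genes of at most 444 bp and all 17807 genes. The bars of snRNA genes are both at 18.8, from the same 6 genes. Every other set has a lower bar for the gene itself, which by its rule can never exceed the bar of the wider window. For the gene itself tRNA genes have the highest bar, at 21.

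Other short noncoding RNA genes gave a frame for these shares. For the wider window the shares were 40.3% of tRNA genes, 17.5% of snoRNA genes and 10% of miRNA genes. For the gene itself they were 21% of tRNA genes, which RNA polymerase III reads, 1.86% of snoRNA genes and 0.769% of miRNA genes. Many snoRNA and miRNA genes lie in introns of other genes, and whether this bears on their shares was not tested. The median of the mean summit distance was 91 bp for tRNA genes, 634 bp for snoRNA genes and 466.5 bp for miRNA genes with peaks in all 3 libraries. These shares are descriptions over classes of unequal size, and no test was made between them.

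snRNA:7SKa, the gene of the RNA that sequesters P-TEFb, had the highest fold enrichment of the snRNA genes in each library. The gene spans 7474553 to 7474996 on 3R (dm6). The fold at the summit was 19.1 in replicate 1, 18.2 in replicate 2 and 17.3 in replicate 3, 18.2 ± 0.905 (SD, n = 3), and stood at the 97.0 percentile of the peaks of its library on average. Its −log10 q-value was 46.5 ± 2.35. All 3 summits lay inside the gene, at 322, 232 and 232 bp from its lower-coordinate end, and the peaks covered 77.6% ± 4.89 of it. No other gene overlapped these peaks, and the nearest boundary of another gene, that of CG1142 or tRNA:Val-CAC-2-4, lay 1004 to 1028 bp from the summit. The second copy, snRNA:7SKb on 3R, lies inside CG4374 and had no peak within 1000 bp in any library. The nearest summit to snRNA:7SKb was 8058, 27937 and 8059 bp away.

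snRNA:U1:95Ca, at 23859467 to 23859630 on 3R, was the second of the 6 in every library. Its peaks had folds of 14.8, 16.2 and 15.5 in replicates 1, 2 and 3, 15.5 ± 0.723 (SD, n = 3), at a mean percentile of 94.3. The lowest value of snRNA:7SKa, 17.3, was above the highest of snRNA:U1:95Ca. The summits lay 30, 94 and 29 bp beyond the higher-coordinate end of the gene, and the peaks covered 91.1% ± 8.84 of the gene. Its neighbours CG34355 and Pli had boundaries 438 to 493 bp from the summits, farther than the snRNA gene.

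The other 4 genes of U1, whose RNA recognises donor splice sites, differed from snRNA:U1:95Ca at the same annotated length of 164 bp. snRNA:U1:21D on 2L had peaks with the summit inside the gene in replicates 2 and 3, of fold 6.21 and 7.16, and none in replicate 1. snRNA:U1:95Cb on 3R, inside CG34355, had a peak of 4.49 in replicate 1 alone, again with the summit inside. snRNA:U1:95Cc, 1373 bp from it and also inside CG34355, had its nearest summits 1433, 2617 and 2617 bp away. snRNA:U1:82Eb had no peak within 1000 bp either, and the nearest summit, 4130, 4127 and 4095 bp away, had a fold of 20.2, 20.5 and 17.1.

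For U5, whose RNA aligns the exons, 1 of 7 genes had peaks in all 3 libraries. snRNA:U5:63BC, at 3090801 to 3090923 on 3L, had folds of 10.97, 12.5 and 11.2 in replicates 1, 2 and 3, 11.6 ± 0.823 (SD, n = 3), at a mean percentile of 84.5. The summits stood 66, 110 and 113 bp outside the lower-coordinate end of the gene, the farthest of the 6 genes. The peak of replicate 2 reached only 14 bp into the gene, and the peaks of replicates 1 and 3 covered 77 and 68 bp. snRNA:U5:63BC lies in the gap between PAN3 and Cht7, of which the nearer boundary was 250 to 285 bp from the summits.

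snRNA:U5:34A and snRNA:U5:35D had peaks in replicates 1 and 3, and none of these peaks lay on the U5 gene. The nearest peaks to snRNA:U5:34A, of fold 6.48 in replicate 1 and 6.13 in replicate 3, had their summits 413 and 412 bp away. These summits lay inside the neighbouring snRNA:U2:34ABc and also inside asRNA:CR45330, an antisense RNA gene that spans it. A further peak of replicate 1 in the window of snRNA:U5:34A, of fold 3.49, had its summit 708 bp away and outside both snRNA genes. The peaks near snRNA:U5:35D, of fold 7.31 and 6.89, had their summits 400 and 399 bp away. They stood 79 and 80 bp from the boundary of ND-B17, which encodes a subunit of respiratory complex I. snRNA:U5:14B, snRNA:U5:23D, snRNA:U5:38ABa and snRNA:U5:38ABb had no peak within 1000 bp in any library.

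Among the 6 genes of U2, the RNA that pairs with the branch point, snRNA:U2:34ABb had the most closely placed summits of the 6 genes. It spans 13215839 to 13216030 on 2L. The folds were 9.97, 10.4 and 11.2 in replicates 1, 2 and 3, 10.5 ± 0.654 (SD, n = 3), at a mean percentile of 80.0. The summits lay 29, 29 and 30 bp outside the lower-coordinate end, within 1 bp of each other, and the peaks covered 86.5% ± 14.4 of the gene. The nearest boundary of another gene, that of kek4, was 459 to 460 bp from the summit. In replicate 3 the peaks of snRNA:U2:34ABb and snRNA:U5:63BC had the same fold, and the same −log10 q-value of 19.0.

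snRNA:U2:34ABc, also on 2L, lies inside asRNA:CR45330. It had peaks within the gene in replicates 1 and 3, of fold 6.48 and 6.13, and its nearest summit in replicate 2 was 22312 bp away. Replicate 1 had a second and weaker peak of fold 3.49, 230 bp outside the gene. snRNA:U2:34ABa lies 3723 bp from snRNA:U2:34ABb, and the peaks of snRNA:U2:34ABb were the nearest to it. snRNA:U2:14B, snRNA:U2:38ABa and snRNA:U2:38ABb had no peak within 1000 bp.

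snRNA:U4:39B was the gene with peaks in all 3 libraries among the 3 genes of U4, the RNA that pairs with U6 until the spliceosome is activated. It spans 21215036 to 21215178 on 2L, inside the autophagy gene Atg18b. Replicate 2 stood above the others, with a fold of 13.4 against 9.36 in replicate 1 and 9.92 in replicate 3, and the mean was 10.9 ± 2.21 (SD, n = 3) at a mean percentile of 80.4. The summits lay 5, 28 and 26 bp beyond the higher-coordinate end, and the peaks covered 70.9% ± 3.23 of the gene. Atg18b itself had no boundary as near to the summits as the 798 to 821 bp of its neighbour CG8679. snRNA:U4:25F and snRNA:U4:38AB had no peak within 1000 bp, with nearest summits 18529 to 19614 bp away.

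**Figure D3:**
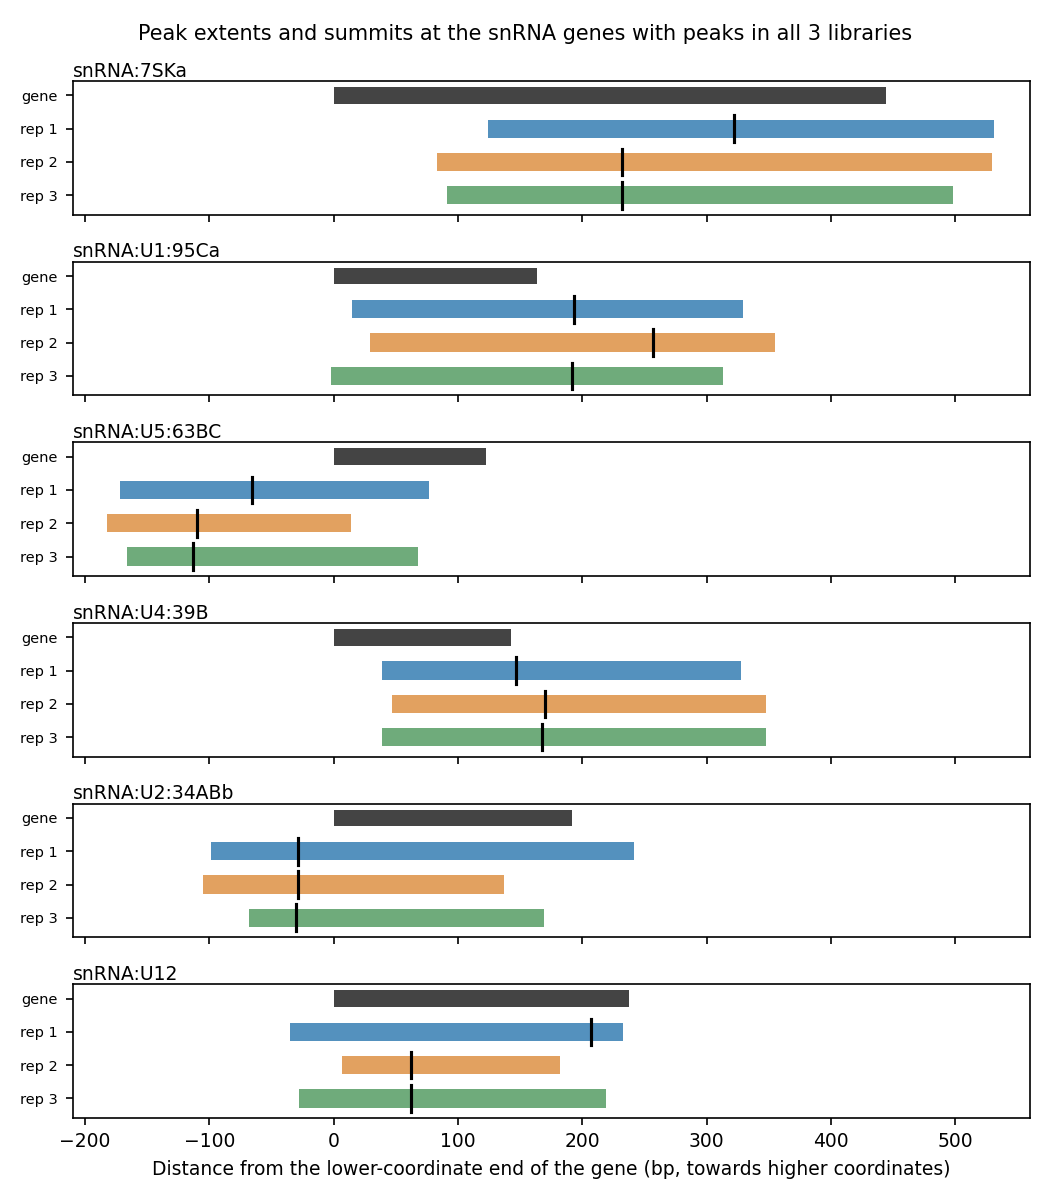
Extents of the peaks (coloured bars) and their summits (black ticks) in replicates 1 to 3 against the gene (dark bar) for the 6 snRNA genes with peaks in all 3 libraries, in bp from the lower-coordinate end of the gene. Summits are inside the gene at snRNA:7SKa and snRNA:U12, and at most 113 bp outside it at the other 4 genes.

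Among the minor spliceosome genes, snRNA:U12, which pairs with the branch point of minor introns, had the weakest of the 6 sets of peaks. It spans 16653769 to 16654006 on 3L, inside Baldspot, a fatty acid elongase gene, whose nearest boundary was 5389 to 5534 bp from the summits. The folds were 4.49, 7.76 and 7.16 in replicates 1, 2 and 3, 6.47 ± 1.74 (SD, n = 3), below those of the other 5 genes in every library. The peak of replicate 1 was at the 14.0 percentile of its library, and those of replicates 2 and 3 at 57.6 and 52.5. Its summit lay 207 bp from the lower-coordinate end, whereas both others lay at 62 bp. snRNA:U11, inside Fie, had a peak of fold 6.13 in replicate 3 alone, with the summit inside the gene. snRNA:U4atac, inside cno, and snRNA:U6atac had no peak, and their nearest summits were 18436 to 18491 bp and 6867 to 6895 bp away.

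The 3 genes of U6, the RNA at the catalytic centre of the spliceosome, lie in tandem on 3R and shared 1 peak. It was found in replicate 1 alone, with a fold of 7.98 at the 65.3 percentile, between snRNA:U6:96Ab and snRNA:U6:96Ac. The summit was 880, 276 and 141 bp from snRNA:U6:96Aa, snRNA:U6:96Ab and snRNA:U6:96Ac, and the peak overlapped none of them. In replicates 2 and 3 the nearest summits were 8497 to 9662 bp away. Peaks in all 3 libraries thus stood at 1 of the 6 genes of the polymerase III classes U6, U6atac and 7SK. They stood at 5 of the 25 genes of the other classes without snRNA:LU. By the same rule 23.5% of all genes and 19% of genes of at most 444 bp were called. The 3 genes of U6 form 1 locus, and no difference between the polymerases is read from these counts. snRNA:U7, inside Eip63E, had no peak within 1000 bp, and its nearest summits were 19121 to 19180 bp away. Nor had snRNA:LU, which lies with snRNA:U5:23D inside FASN2.

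In fold enrichment the order of the 6 genes was partly stable between libraries. snRNA:7SKa was first, snRNA:U1:95Ca second and snRNA:U12 last in each. The ranges of snRNA:U5:63BC, snRNA:U4:39B and snRNA:U2:34ABb overlapped, and their order differed between libraries. At the genes with a peak in 1 or 2 libraries the 10 distinct peaks had folds of 3.49 to 7.98 and were 86 to 193 bp wide. Their percentiles ran from 2.09 to 65.3, against 14.0 to 98.2 for the 18 peaks at the 6 genes, of which 17 were above the median fold of their library. The genes were split by the number of libraries with a called peak, and the call itself depends on peak strength. These differences are therefore no separate result, and other genes with peaks in all 3 libraries were not compared in this way.

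**Figure D4:**
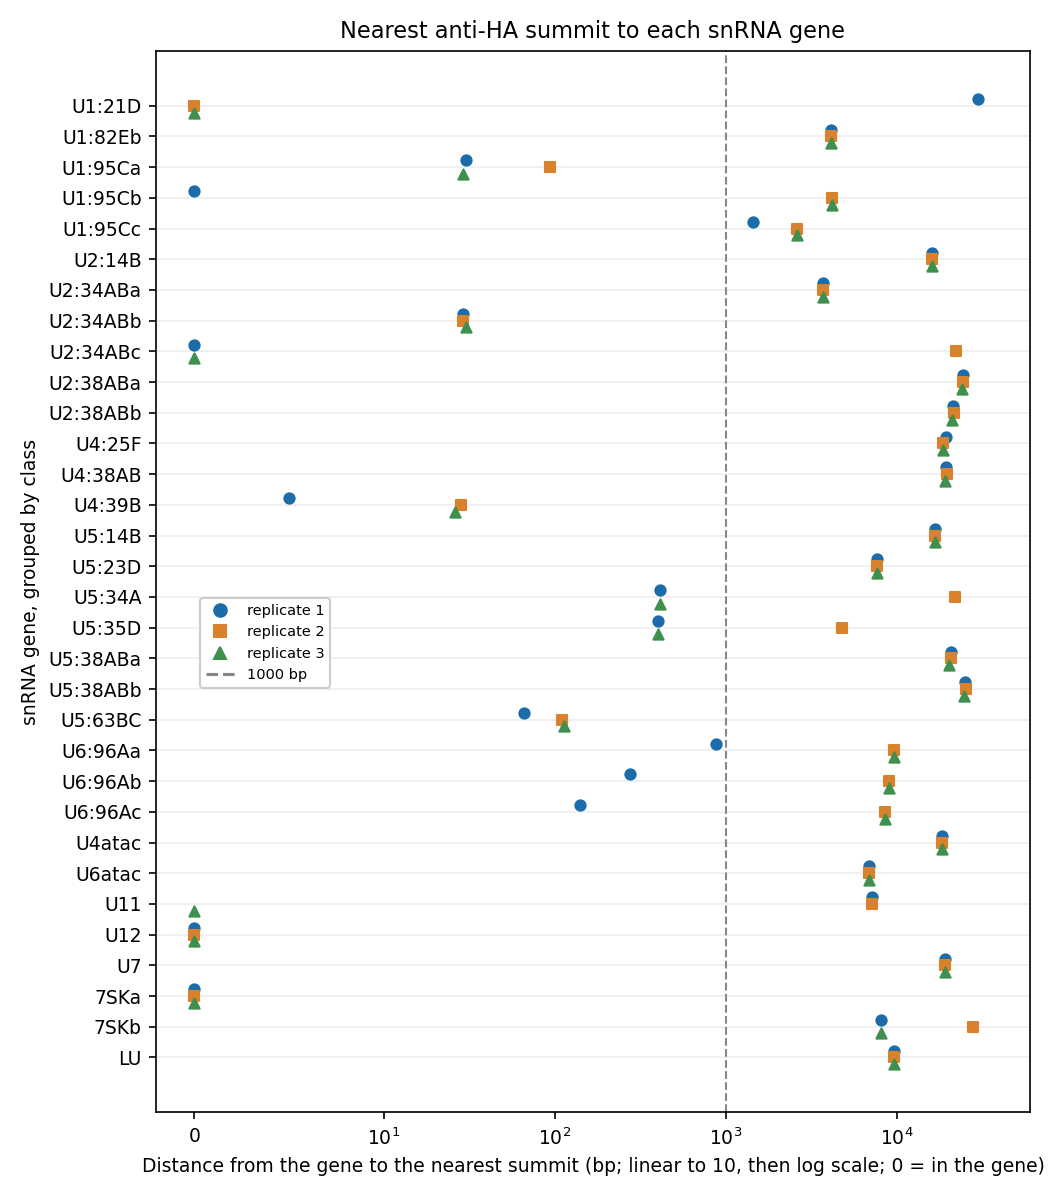
Distance from each of the 32 snRNA genes to the nearest summit in each library, in bp on an axis that is linear to 10 bp and logarithmic beyond, with the dashed line at 1000 bp. The 6 genes with peaks in all 3 libraries have all points at 0 to 113 bp, and the 17 genes with none have all points at 1433 bp or more.

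Many snRNA genes share a locus, so the members are not independent of each other. Joined where they lie less than 5000 bp apart, the 32 genes form 21 loci, of which 7 hold more than 1 gene and 18 genes in all. The 6 genes with peaks in all 3 libraries lie in 6 different loci. The largest locus, on 2L from 19810734 to 19816540 and inside sick, holds 5 genes of U2, U4 and U5, and the nearest peak of any library ended 19038 bp from it. The pair snRNA:U2:14B and snRNA:U5:14B on X had its nearest peak 15972 bp away. Of 17 snRNA genes inside another gene, 2 had peaks in all 3 libraries, where 17% of the 911 genes of at most 444 bp inside another gene had them. Of the 15 snRNA genes not inside another gene, 4 had them, where the share was 20.8% of 1011 such short genes. How reads that map to several copies were handled is not given in the sources used here, and the part of near-identical copies in these counts was not tested.

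Values near the limit of 1000 bp were few. The farthest peak inside it was that of replicate 1 at snRNA:U6:96Aa, 839 bp from the gene at its edge. The nearest outside was the peak of replicate 1 in snRNA:U1:95Cb, 1368 bp from snRNA:U1:95Cc. Over the 17 genes without a peak, the nearest summit was between 1433 and 27937 bp away, and the median over these genes was 16793 bp.

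The protein genes that make and use snRNAs had peaks about as often as other genes. Of 49 listed genes, 12 had a peak in the gene or within 1000 bp in all 3 libraries (24.5%, against 23.5% of all genes), 6 had one in 1 or 2 libraries and 31 had none. These 12 included 2 of 6 genes of SNAPc and polymerase III initiation, 4 of 14 of Integrator, which cleaves nascent snRNA ends, 4 of 14 core snRNP protein genes and 2 of 5 of the 7SK particle. In the SMN complex and import group, which assembles Sm rings, 0 of 8 had them, with Phax at 2 libraries, and in the U7 group 0 of 2. The median length of the 49 genes was 2196 bp.

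By the highest fold within the window in each library, Pbp49, a SNAPc subunit gene, led with 11.9, 18.8 and 19.0 in replicates 1, 2 and 3, 16.6 ± 4.08 (SD, n = 3). Both other SNAPc genes, Pbp45 and Pbp95, had none. The Integrator genes IntS6, IntS1 and omd had 13.8 ± 1.44, 10.8 ± 1.15 and 11.1 ± 3.68. bin3, whose product methylates the 7SK cap, had 13.2 ± 0.818, with 5 peaks in each library over a gene of 26035 bp, and Cdk9, the kinase of P-TEFb, had 9.50 ± 1.65. Hexim, the P-TEFb inhibitor gene, had no peak, and Larp7 had one in replicates 2 and 3. The U1 snRNP genes snRNP-U1-C and snRNP-U1-70K had 11.9 ± 1.19 and 7.52 ± 0.883, SmD3 had 7.80 ± 1.21 and Brf, a TFIIIB subunit gene, had 9.82 ± 1.68. These values can belong to a neighbour that shares the window. Peaks in all 3 libraries also stood at 5 of 5 genes that pattern or mark the wing disc (nub, vg, wg, ap and Dll), against 23.5% of all genes. These 5 genes are 9107 to 40511 bp long, and the lists do not measure expression, so this does not test the labelled tissue.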

How the data were processed

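Peak names in each of the 3 deposited lists carry 1 library, so peaks were called per library. The submitters' processing notes name dm6 as the build, MACS2, Bowtie2 and Bowtie, FastQC and Trim Galore, deepTools, HOMER and ChIPseeker, and R 4.2.1. Settings, multiply mapping reads and sequencing depth: not given in the sources used here, so counting error has no interval. The authors' lists hold, per peak, the fold enrichment (a ratio over the caller's background), the −log10 p-value and the −log10 q-value. The deposited score is 10 times the −log10 q-value without its decimals in 99.99% of peaks. The minimum −log10 q-value per library averaged 2.02 ± 0.0116 (SD, n = 3). There were 9268, 9005 and 9225 peaks in replicates 1, 2 and 3. Of these, 8270, 8118 and 8273 lay on the main chromosomes, and only they could count for a gene. Percentiles, median widths and median folds used all peaks of a library.

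Genes came from the RefSeq gene table of Release 6 plus ISO1 MT, which gives no strand, so summits are placed by lower and higher coordinate. No sequence was used, and the planned motif search was not run. A peak counted when at least 1 bp of it lay in the gene or its 1000 bp flanks, and the peak with the nearest summit stood for the gene. A percentile is the rank of a peak's fold within its library. Every snRNA gene was named, and of the pathway list the 10 genes with the highest mean percentile were eligible with values. 1 of 50 listed names, SmG, matched 2 genes and was left out, and Gem4a matched Glos by synonym. The members and lists were chosen with earlier results of these data known. The 1 group has no contrast, so no test was made. Python 3.11.15, numpy 2.4.6 and pandas 2.3.3 were used, and the overlap step was tested on simulated data.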

Additional observations from a re-analysis of the deposited data

How the results depend on the processing

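The same 6 snRNA genes (18.8%) had peaks in all 3 libraries with windows of 500 bp (against 20.1% of all genes) or 2000 bp (28.7%), for the gene itself (14.2%), for summits inside the window (22.8%) and for 1 merged region of all libraries (23.1%). With peaks of a −log10 q-value of at least 5, 5 of them remained (15.6%, against 21.5% of all genes), and likewise with peaks above the median fold of their library (15.6%, against 16.0%). snRNA:U12 was lost in both. Asking for a peak in at least 2 libraries gave 10 snRNA genes (31.2%, against 28.4% of all genes), and in at least 1 library 15 (46.9%, against 35.2%). With 1 library left out, the counts ranged from 6 to 9 snRNA genes (the 9 without replicate 2) and 4403 to 4588 of all genes. Without replicate 1, 2 or 3 the shares were 21.9%, 28.1% and 18.8% of snRNA genes, against 25.8%, 24.7% and 24.9% of all genes. The share of snRNA genes was thus above that of all genes only without replicate 2. The counts of loci (a unit chosen after seeing the data) ranged from 6 to 8, and those of pathway genes from 13 to 14. For the gene itself, chosen after seeing the data, 2535 of all genes and 6 pathway genes were counted, against 4185 and 12 with flanks. Taking the peak with the highest fold in the window picked the same peaks at the 6 genes, so it tests nothing of their folds and distances. No paired analysis was possible because there is 1 group. The deposited lists give no depth, so a gene without a peak is below the caller's threshold and not shown to be without signal.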
